A study of Sus scrofa with 6 samples.

Results

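ALX1, LHX8, PAX9, MSX1, BARX1, OSR2, TWIST1 and TFAP2A are transcription factor genes that shape the mesenchyme of the face and jaw. Their RNA levels were described in 6 cultures of pig bone marrow mesenchymal stem cells, the plastic-adherent stromal cells of marrow. Each gene was found by its symbol in the platform annotation, all 8 had exactly 1 probe set with that symbol alone, and they were 8 of 10879 named genes on the array. Of the cultures, 3 came from mandibular marrow, aspirated at the symphysis, at the chin, and 3 from tibial marrow. All animals were female American Yorkshire pigs aged 4 months, with no mutation or treatment named. All cultures were at passage 0, had come from marrow plated without sorting and were harvested at 80% confluence in medium with 20% serum. Marrow of both sites came from 3 pigs, but the labels do not say which pig gave which sample, so arrays from the same pig may not be independent. The p-values below measure the spread between these samples.

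In mouse and human, the mesenchyme of the jaws descends from the cranial neural crest, whereas limb bones descend from mesoderm. The crest cells that fill the first pharyngeal arch carry no HOX code, and factors such as those described here pattern them in response to signals from the overlying epithelium. Several of these factors also act in limb buds, teeth or the brain, so none of them is a marker of the jaw alone.

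The values are log2 levels from RMA, which corrects background and makes the distributions of the arrays equal, so levels are relative. Array medians lay between 5.63 and 5.71 and lower quartiles between 3.86 and 3.94. No measure of detection came with the values, and levels near or under the lower quartile cannot be separated from background. The stromal markers THY1 and COL1A1 measured 10.5 to 10.7 and 13.24 to 13.49 over the 6 arrays. The arrays did not separate by site over all probe sets: their mean correlation was 0.9793 within a site and 0.9787 between sites. On the arrays labelled mandibular 2 and tibial 3, several positional genes, among them ALX1, LHX8, PAX9 and MSX1, lay nearer the levels of the other site. The differences of the 8 genes and of the lists that moved most with these arrays are therefore given with and without them. Every array is called by its label.

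ALX1 and LHX8 had the widest spread of the 8 genes, and it did not follow the labelled sites. ALX1, a paired-type homeobox gene needed for the frontonasal skeleton in mouse and human, measured 8.08, 3.86 and 7.44 on the arrays labelled mandibular 1, 2 and 3, against 3.90, 3.54 and 7.97 on those labelled tibial 1, 2 and 3. The levels of both sites overlapped. They were high on mandibular 1, mandibular 3 and tibial 3, and on the other 3 arrays they were close to the lower quartile. No level fell in the gap of 3.54 log2 units between these arrays. In cultures measured as a whole, fewer cells with a transcript and less of it per cell cannot be told apart.

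LHX8 encodes a LIM homeodomain factor that acts in the palate, the teeth and cholinergic neurons of the forebrain in mouse. It measured 8.26, 3.70 and 8.25 on mandibular 1, 2 and 3, against 4.77, 4.10 and 8.67 on tibial 1, 2 and 3. The same 3 arrays as for ALX1 were high, with a gap of 3.48 to the rest. Its range of 4.96, or 31.2-fold, was exceeded by 22 of the 10879 named genes, and the ALX1 range of 4.54, or 23.2-fold, by 36. The low end of both ranges lay near background.

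The other homeobox genes were MSX1 and BARX1, and they differed from each other. MSX1, a factor of tooth and palate mesenchyme that is also active in limb buds, measured 7.58, 5.76 and 7.28 on mandibular 1, 2 and 3, against 5.67, 5.85 and 6.72 on tibial 1, 2 and 3. The arrays above its widest gap were again mandibular 1, mandibular 3 and tibial 3, but the gap was 0.87 and tibial 3 lay 0.56 below mandibular 3. BARX1, a gene of the molar field and of stomach mesenchyme in mouse, measured 5.91, 7.45 and 5.80 on mandibular 1, 2 and 3, against 6.37, 6.63 and 5.65 on tibial 1, 2 and 3. Its order was another one: mandibular 2 was highest, then tibial 2 and tibial 1, and tibial 3 was lowest. Only mandibular 2 stood above its widest gap of 0.83, and the other 5 levels spanned 0.98.

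PAX9, a paired-box gene needed for tooth development in mouse and human, measured 7.35, 5.78 and 7.35 on mandibular 1, 2 and 3, against 5.01, 5.75 and 7.80 on tibial 1, 2 and 3. It had the arrangement of ALX1 and LHX8 with a smaller gap of 1.57, and its lowest level was above the lower quartile of every array. OSR2, a zinc finger gene of the palate and of tooth patterning in mouse, measured 5.31, 5.08 and 5.35 on mandibular 1, 2 and 3, against 4.63, 3.26 and 6.03 on tibial 1, 2 and 3. The mandibular levels of OSR2 spanned 0.27, all within the tibial span of 2.77. Mandibular 2 thus lay with the other mandibular arrays for OSR2, and tibial 2 alone was near background.

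In TWIST1 and TFAP2A, as in PAX9 and OSR2, the overlap of the sites depended on the array labelled tibial 3. Without tibial 3 the sites did not overlap for these 4 of the 8 genes, beside 21.7% of all probe sets. In PAX9 this was narrow, with 5.78 on mandibular 2 and 5.75 on tibial 2. The overlap also depended on a mandibular array in some genes. TWIST1 had no overlap without mandibular 1, narrowly, with mandibular 3 at 8.27 and tibial 3 at 8.31, beside 17.4% of all probe sets. TFAP2A and MSX1 had none without mandibular 2, beside 17% of all probe sets. TWIST1, a basic helix-loop-helix factor of cranial mesenchyme and sutures, measured 8.58, 8.11 and 8.27 on mandibular 1, 2 and 3, against 9.17, 8.87 and 8.31 on tibial 1, 2 and 3. It was the only member of the 8 with a lower mandibular mean, and its range of 1.05 was the narrowest. TFAP2A encodes AP-2 alpha, a factor of neural crest and facial ectoderm. It measured 8.39, 7.62 and 8.38 on mandibular 1, 2 and 3, against 5.82, 6.44 and 8.24 on tibial 1, 2 and 3. All 3 mandibular levels were above those of tibial 1 and tibial 2, by at least 1.18, and tibial 3 lay among them.

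**Figure D1:**
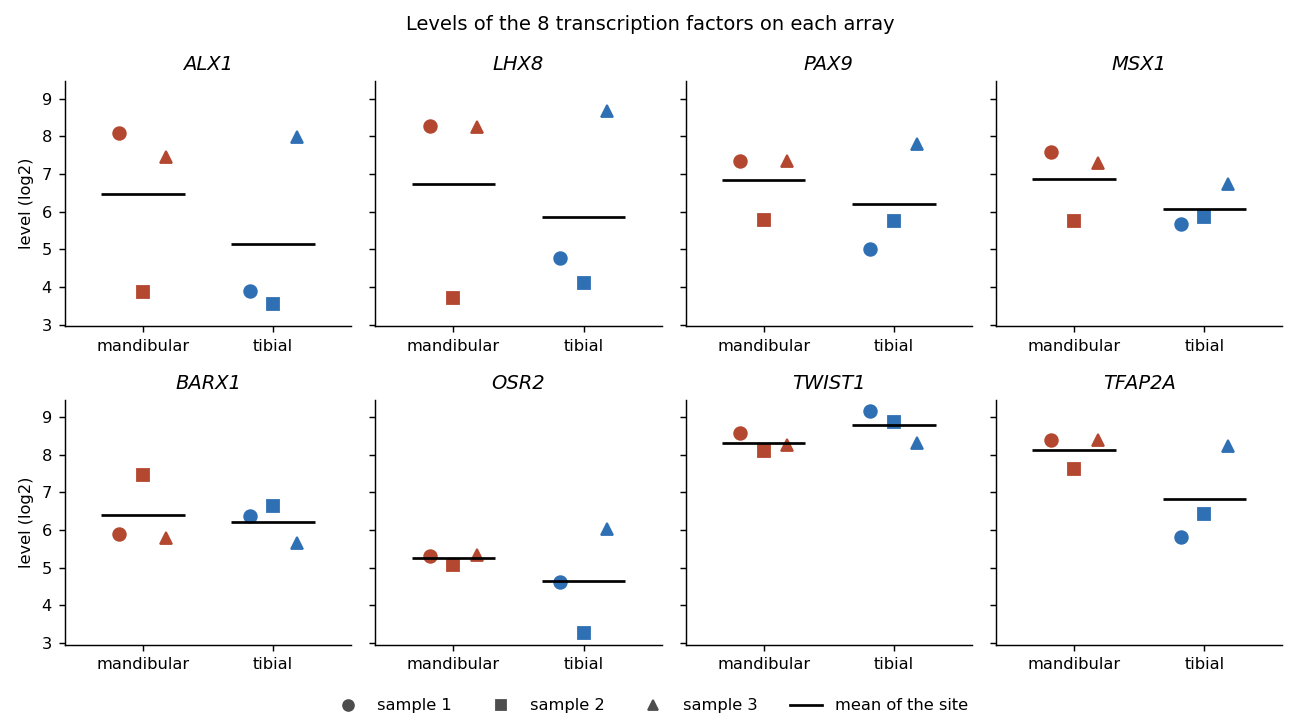
Level (log2) of each of the 8 genes on each array, with mandibular samples on the left and tibial samples on the right of each panel, symbols for sample number and a line at each site's mean. The levels of the sites overlap in every panel, and in ALX1 and LHX8 the mandibular square and the tibial triangle lie apart from the other samples of their site.

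None of the 8 genes was called between the labelled sites. With limma over all 27558 probe sets and Benjamini-Hochberg adjustment, 0 of the 8 were called at a threshold of 0.05, where 0 of all probe sets (0%) were called. At an unadjusted p under 0.05 limma gave 0 of the 8 beside 3.03% of all probe sets, and the unmoderated fit also gave 0 of the 8. The 3 mandibular and 3 tibial levels overlapped for each of the 8 genes, and they did not overlap for 6.92% of all probe sets. The mean was higher in mandibular cultures for 7 genes and lower for 1. The median difference over the 8 was 0.72, beside 0.00 over all probe sets, and it was 1.82 without the arrays labelled mandibular 2 and tibial 3.

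The differences had wide intervals. TFAP2A averaged 8.13 ± 0.44 in mandibular and 6.83 ± 1.26 in tibial cultures (SD, n = 3 each), a difference of 1.29 (SE 0.60) with a 95% interval from -0.15 to 2.74. TWIST1 averaged 8.32 ± 0.24 in mandibular and 8.78 ± 0.43 in tibial cultures, a difference of -0.46 (SE 0.24) with an interval from -1.04 to 0.12. For these genes 41.4% and 39.6% of the variance over the arrays lay between the labelled sites. The two-sided exact permutation test gave p = 0.2 for each, where 0.1 is the smallest p that 3 arrays against 3 allow.

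For the genes with the widest spread, little of it lay between the sites. ALX1 averaged 6.46 ± 2.28 in mandibular and 5.14 ± 2.46 in tibial cultures (SD, n = 3 each), and 10.5% of its variance was between sites. LHX8 averaged 6.74 ± 2.63 and 5.85 ± 2.46 in mandibular and tibial cultures, and its share was 4.4%. Their intervals ran from -2.26 to 4.91 and from -2.97 to 4.75, so with 3 arrays a site they included sizeable differences in either direction. MSX1 differed by 0.79 (SE 0.51), PAX9 by 0.64 (SE 0.77) and OSR2 by 0.61 (SE 0.63). BARX1 averaged 6.39 ± 0.93 in mandibular and 6.22 ± 0.51 in tibial cultures, a difference of 0.17 (SE 0.48) with an interval from -0.99 to 1.32. The exact permutation p of these 6 genes lay between 0.3 and 1, and the adjusted p in limma was 0.9995 for all 8 genes.

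**Figure D2:**
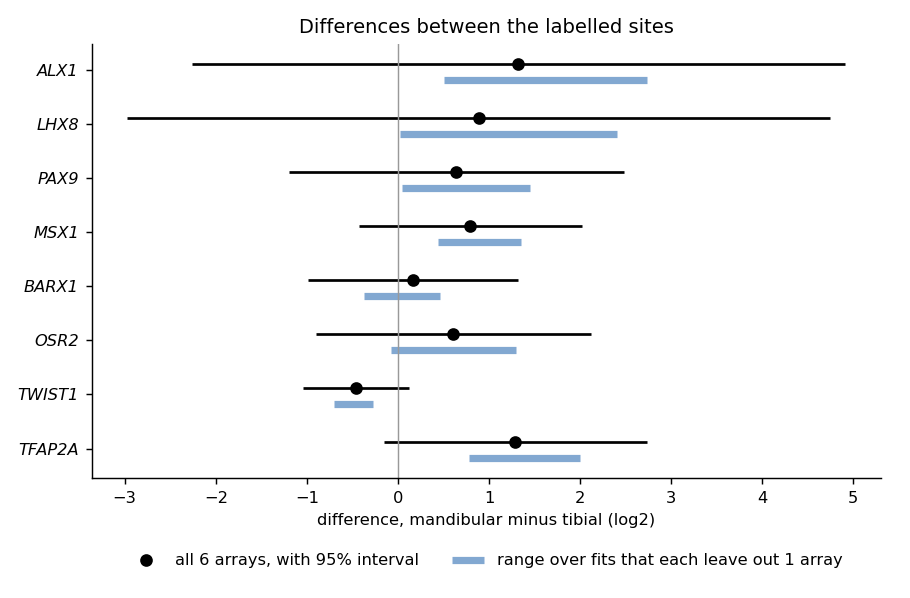
Difference of each gene, mandibular minus tibial on the log2 scale, as a point with its 95% interval from limma over all 6 arrays, and below it a bar from the lowest to the highest difference when each array in turn is left out. All 8 intervals include 0, and the bars of BARX1 and OSR2 cross 0.

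Leaving out the arrays labelled mandibular 2 and tibial 3 moved the difference of every member but TWIST1 by more than 1.5 times, or turned it. Those arrays were singled out from levels that included these genes, so this fit is a description and no test of them. ALX1 then differed by 4.04 and LHX8 by 3.82. TFAP2A differed by 2.25, PAX9 by 1.97, MSX1 by 1.67 and OSR2 by 1.39. TWIST1 differed by -0.59, and BARX1 turned to -0.65. In that fit limma called 4 of the 8 genes (ALX1, LHX8, MSX1 and TFAP2A), beside 0.708% of all probe sets. The remaining levels, 2 and 2, did not overlap for any of the 8, beside 37.3% of all probe sets.

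Leaving out 1 array moved the differences both up and down. ALX1 differed by 2.74 without tibial 3 and 2.62 without mandibular 2, but by 0.51 without mandibular 1, 0.53 without tibial 2, 0.71 without tibial 1 and 0.83 without mandibular 3. LHX8 differed by 2.41 without mandibular 2 and 2.30 without tibial 3, and by 0.02 to 0.35 without any other array. MSX1 ranged from 0.44 without mandibular 1 to 1.35 without mandibular 2. The sign of these genes held in each such fit. PAX9 ranged from 0.05 without tibial 1 to 1.45 without tibial 3, and TFAP2A from 0.78 to 2.00 without the same arrays. TWIST1 ranged from -0.70 without tibial 3 to -0.27 without tibial 1. The sign of BARX1 and OSR2 rested on single arrays: BARX1 was -0.37 without mandibular 2 and -0.12 without tibial 3, and OSR2 was -0.08 without tibial 2 and 1.30 without tibial 3. None of the 8 was called in any fit that left out 1 array.

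By a root mean square over the 8 genes, the arrays lay either close together or far apart. This measure gives large differences the most weight. The pairs far apart therefore rest mainly on ALX1 and LHX8, with ranges of 4.54 and 4.96. BARX1, OSR2, TWIST1 and TFAP2A had other arrays above their widest gap than these genes. Between 2 arrays, the root mean square of the 8 differences was 0.28 for mandibular 1 and mandibular 3, 0.43 for mandibular 3 and tibial 3, and 0.47 for mandibular 1 and tibial 3. It was 0.67 for tibial 1 and tibial 2, and 0.97 and 0.88 for mandibular 2 against tibial 1 and tibial 2. Each of the other 9 pairs differed by 2.26 to 2.68. Pairs of the same site were thus found at both ends, with 2.44 for mandibular 1 and mandibular 2 and 2.68 for tibial 2 and tibial 3. Over all named genes the same measure lay between 0.27 and 0.71. The pair of mandibular 3 and tibial 3 had the smallest value over all named genes, 0.27, and the second smallest over the 8 factors. Counting the genes that differed by more than 1 did not separate the pairs as clearly. Mandibular 2 and tibial 1 had 4 of the 8, beside 5.1% of named genes. Mandibular 2 and tibial 3 also had 4, beside 4.1%.

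**Figure D3:**
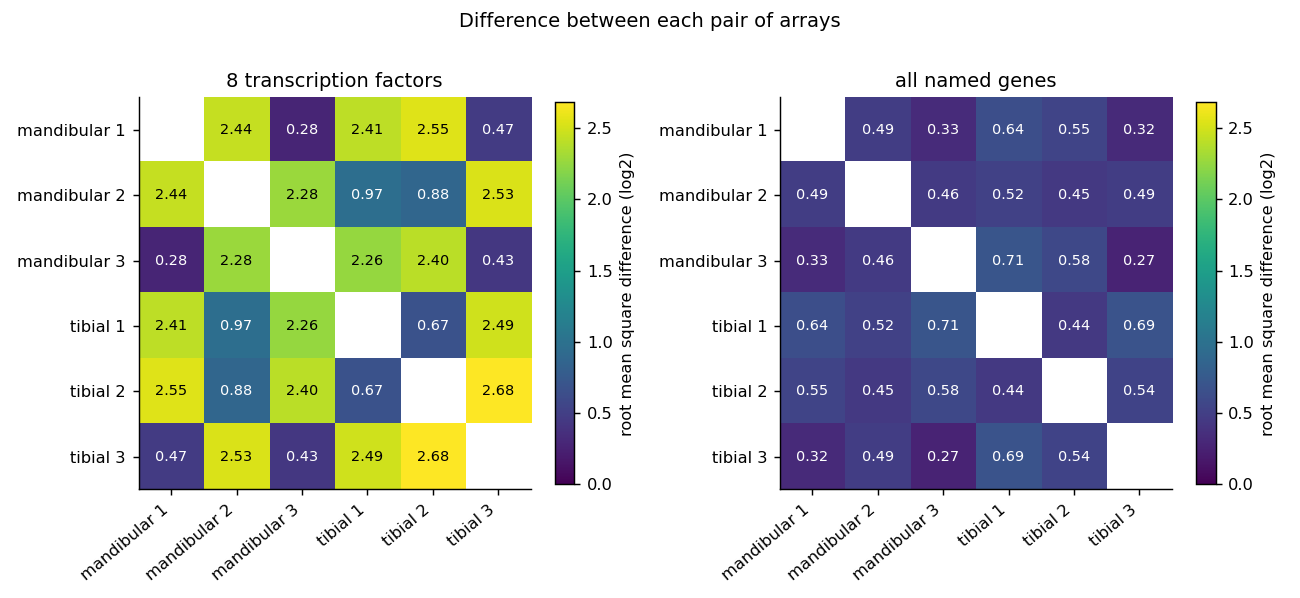
Root mean square difference (log2) between each pair of arrays, over the 8 genes on the left and over all 10879 named genes on the right, on the same colour scale. Over the 8 genes 9 pairs lie between 2.26 and 2.68 and the other 6 at 0.97 or less, while over all genes every pair lies between 0.27 and 0.71. The high values on the left rest mainly on ALX1 and LHX8.

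The range over the arrays was at least 1 log2 unit for all 8 genes, beside 14.9% of the named genes, and the median range was 2.67 beside 0.51. Without mandibular 2 the range of BARX1 was 0.98 and that of TWIST1 0.90, and without tibial 1 that of TWIST1 was 0.76. The range of OSR2 was 1.40 without tibial 2, its array near background. The 8 genes were chosen with such values known, so these figures describe them and test nothing. They did not share a pattern. Likeness was measured as the root mean square difference between the levels of 2 genes over the 6 arrays, each centred on its own mean, so genes must match in size as well as order. By this measure ALX1 and LHX8 lay 0.37 apart, nearer to each other than either was to any of 1616 other genes with a range of at least 1. PAX9 lay 0.44 from TFAP2A and 0.53 from MSX1. BARX1 lay at least 0.73 from each of the other 7, and TWIST1 was the nearest of them.

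Genes outside the 8 with the nearest patterns were named by the same measure over the 6 arrays. Nearest to ALX1 were the phospholipase D family gene PLD5 at 0.84, ADAM23 at 0.85, which encodes a metalloproteinase-like adhesion protein, and PAX6 at 0.88, the paired-box gene of the eye. PAX6 measured 7.97, 6.44 and 8.37 on mandibular 1, 2 and 3, against 5.29, 5.35 and 8.44 on tibial 1, 2 and 3. ADAM23 and PLD5 were also the nearest to LHX8, at 0.89 and 0.98, followed by MYOZ2, a sarcomere protein gene, at 1.00. Nearest to PAX9 were MET, the hepatocyte growth factor receptor gene, at 0.24, KCNIP3 at 0.27 and ID1 at 0.28. Nearest to MSX1 were TENM3, a teneurin adhesion gene, at 0.19, PPP1R9A at 0.22 and the lysophosphatidic acid receptor gene LPAR1 at 0.22.

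The nearest genes of the other 4 members lay at 0.07 to 0.35. TBX3, a T-box gene of limb and facial development, was nearest to TFAP2A at 0.13, followed by the complement protease gene MASP1 at 0.18 and the complement inhibitor gene CD59 at 0.23. TBX3 measured 8.11, 7.17 and 8.01 on mandibular 1, 2 and 3, against 5.36, 6.30 and 8.11 on tibial 1, 2 and 3. Nearest to OSR2 were COL14A1, a fibril-associated collagen gene, at 0.25, the growth factor gene FGF5 at 0.26 and EPB41L3 at 0.35. Nearest to BARX1 were GVIN1 at 0.13, DNAJC6 at 0.15 and RBPMS2 at 0.18. Nearest to TWIST1 were RAMP2, a receptor activity-modifying protein gene, at 0.07, MIR24-1 at 0.11 and the lysosomal enzyme gene GUSB at 0.13. A narrow range such as that of TWIST1 makes small distances easier to reach.

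Close relatives of the 8 genes varied little. Of 10 listed paralogues 6 were measured, 0 passed the test, and their median difference was -0.05, or 0.10 without mandibular 2 and tibial 3. The range was under 1 for all 6: 0.58 for ALX4, 0.53 for TWIST2, 0.40 for BARX2, 0.37 for LHX6, 0.32 for TFAP2C and 0.21 for PAX1. ALX4, which acts beside ALX1 in the mouse face, measured 4.74, 5.05 and 4.73 on mandibular 1, 2 and 3, against 5.31, 4.82 and 5.04 on tibial 1, 2 and 3. LHX6, which acts beside LHX8 in the mouse first arch, measured 5.69 to 6.06 over all arrays, and TWIST2 measured 6.93 to 7.47. Neither ALX4 nor LHX6 had the gap seen in ALX1 and LHX8. BARX2 was the only paralogue of the 6 without overlap between the sites, with 4.02 to 4.25 in mandibular and 4.28 to 4.42 in tibial cultures, low levels near background.

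Genes that act with the 8 factors also gave no calls. Of 19 listed partners and inhibitors 14 were measured, with 11 higher and 3 lower in mandibular cultures, 0 past the test and a median difference of 0.07. ID1, whose protein blocks the E-protein partners of TWIST1, measured 8.42, 7.35 and 8.95 on mandibular 1, 2 and 3, against 5.87, 7.09 and 8.82 on tibial 1, 2 and 3. It was lowest on tibial 1, and its difference of 0.97 (SE 0.76) was 0.28 without that array, 1.75 without tibial 3, 0.62 without mandibular 3 and 2.20 without mandibular 2 and tibial 3. The next widest ranges of this list were 1.17 for ID4, 0.83 for MEIS2 and 0.77 for ID2.

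Of 40 listed other transcription factors of face and jaw mesenchyme 25 were measured, 15 higher and 10 lower, 0 past the test, with a median difference of 0.05. HAND2, which sets the distal end of the jaw and the posterior limb bud, measured 7.17, 4.43 and 6.44 on mandibular 1, 2 and 3, against 4.81, 4.12 and 6.04 on tibial 1, 2 and 3. It was high on the same 3 arrays as ALX1, and its difference was 1.03 (SE 0.78). Without mandibular 1 it was 0.45, without tibial 2 0.59, without mandibular 2 1.82, without tibial 3 1.55, and without both mandibular 2 and tibial 3 2.34. TBX3 differed by 1.17 (SE 0.67), by 0.56 without tibial 1, by 1.93 without tibial 3 and by 2.23 without mandibular 2 and tibial 3. FOXC2, a forkhead gene of head and trunk mesenchyme, was highest on mandibular 2 at 9.69, and so was DLX2, a homeobox gene of the arches, at 8.37. PRRX1, the mesenchymal homeobox gene of face and limb, measured 12.03, 12.28 and 12.04 on mandibular 1, 2 and 3, against 11.73, 12.28 and 11.92 on tibial 1, 2 and 3, without a gap like that of ALX1. PRRX1 was named after its values were seen.

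Of 27 listed signals of the facial primordia 20 were measured, 11 higher and 9 lower, 0 past the test, with a median of 0.04. NOG, the BMP inhibitor gene, measured 9.07, 7.81 and 8.83 on mandibular 1, 2 and 3, against 6.77, 7.29 and 8.05 on tibial 1, 2 and 3. Its difference of 1.20 (SE 0.43) had an unadjusted p of 0.027 and an adjusted p of 0.9995 in limma. BMP4, a ligand that NOG blocks, had a smaller unadjusted p of 0.006 with the same adjusted p, and was the only gene of this list without overlap between the sites, with 8.08 to 8.45 in mandibular and 7.23 to 7.85 in tibial cultures, as seen after its values were known. Without mandibular 2 and tibial 3 NOG differed by 1.92 and BMP4 by 1.05. EDN1, the endothelin that patterns the lower jaw, was highest on mandibular 2 at 8.30. TGFB2 and TGFB3 were highest there too, at 5.82 and 10.05. These 3 genes thus shared their highest array with BARX1.

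The 4 HOX genes with the widest ranges ran opposite to ALX1 and LHX8 over the arrays. Of 27 measured, 8 were higher and 19 lower in mandibular cultures, with a median difference of -0.15 and 0 past the test. Without mandibular 2 and tibial 3 the median was -0.38 and 5 of the 27 were called, beside 0.708% of all probe sets. The 5 were HOXA7, HOXA9, HOXA11, HOXD8 and HOXD10. That fit is no test of genes used to single out those arrays. HOXA5, a trunk HOX gene, measured 4.61, 6.60 and 4.76 on mandibular 1, 2 and 3, against 6.28, 7.07 and 4.84 on tibial 1, 2 and 3. Its low arrays were those where ALX1 was high. HOXA7, HOXA9 and HOXD10 were likewise lowest on mandibular 1, mandibular 3 and tibial 3.

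**Figure D4:**
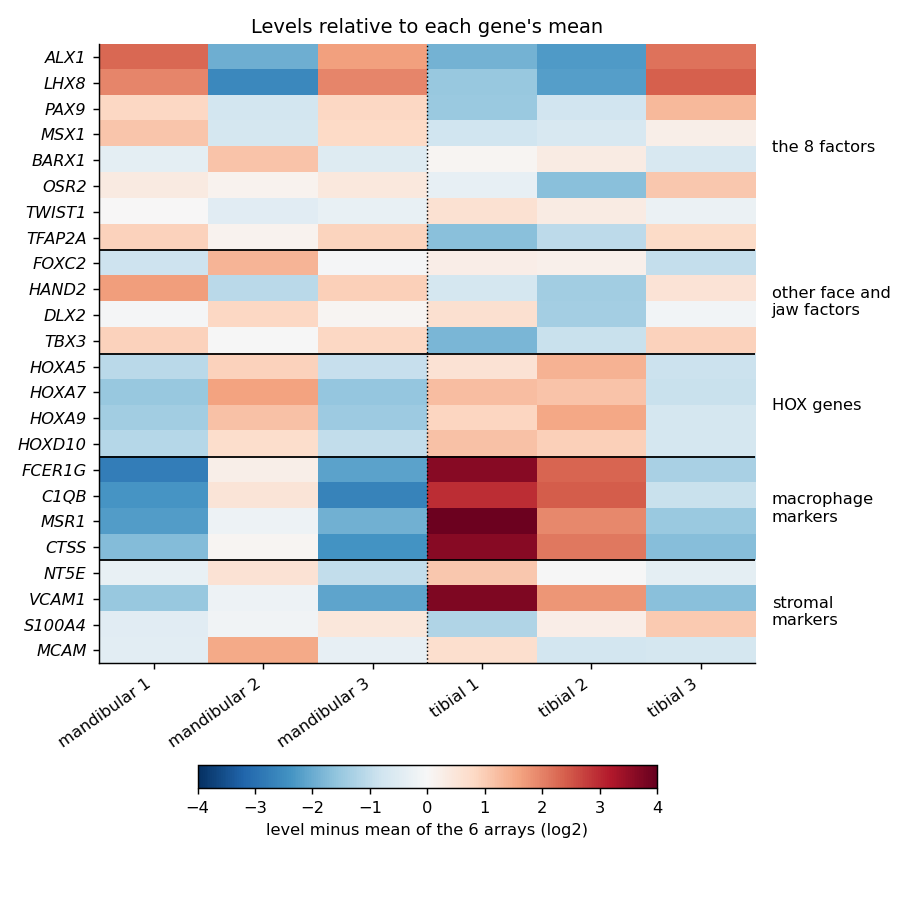
Level of each gene minus its mean over the 6 arrays (log2), in red above and blue below the mean, for the 8 factors and for the 4 genes with the widest range in each of 4 lists, with mandibular arrays left of the dotted line and tibial arrays right of it. ALX1 and LHX8 are red on mandibular 1, mandibular 3 and tibial 3, where the 4 HOX genes are blue, and the 4 macrophage genes are red mainly on tibial 1 and tibial 2.

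Markers of another cell type ran in part opposite to ALX1 and LHX8. Macrophage and monocyte markers, of which 18 of 24 were measured, had list means of 5.0 to 6.21 in mandibular and 5.50 to 8.55 in tibial cultures, and 17 of the 18 were lower in mandibular cultures, with 0 past the test. The exception, CD86, measured 9.85, 7.80 and 9.87 on mandibular 1, 2 and 3, against 8.44, 7.44 and 9.64 on tibial 1, 2 and 3. CD86 was thus highest on the arrays where ALX1 was high. The median difference of the 18 was -2.21, or -3.76 without mandibular 2 and tibial 3. In that fit, a description and no test, 14 were called, beside 0.708% of all probe sets. The list means were highest on tibial 1 and tibial 2, at 8.55 and 7.91, then on mandibular 2 at 6.21, which are the arrays where ALX1 and LHX8 were low. PTPRC, the leukocyte antigen CD45, measured 3.42 to 4.86 in mandibular and 3.91 to 7.66 in tibial cultures. On mandibular 2, where ALX1 was as low as on tibial 1 and tibial 2, PTPRC was 4.86, beside 7.66 and 6.96 on tibial 1 and tibial 2. The part of these cells in the levels of the 8 genes was not tested.

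The list means of stromal and epithelial markers varied little, while single members varied more. The mean of 13 measured stromal markers lay between 9.53 and 9.86 in mandibular and between 9.56 and 10.03 in tibial cultures. It was higher on the arrays with low ALX1, at 9.86, 10.03 and 9.83 on mandibular 2, tibial 1 and tibial 2. On mandibular 1, mandibular 3 and tibial 3 it was 9.53, 9.53 and 9.56. Of the 13, 6 had a range of at least 1: VCAM1, S100A4, MCAM, NT5E, CD44 and ENG, of which CD44 and ENG were named after their values were seen. VCAM1 measured 3.68 to 5.57 in mandibular and 4.10 to 9.52 in tibial cultures and was highest on tibial 1 and tibial 2, as the macrophage markers were. Epithelial markers, a check for TFAP2A, which ectoderm also expresses, had list means of 4.49 to 4.73 in mandibular and 4.64 to 4.79 in tibial cultures. EPCAM, an epithelial adhesion gene, measured 3.50 to 4.02 on all arrays, near background. ESRP1, a splicing factor gene of epithelia, had the widest range of this list, 2.93. It measured 4.13, 3.41 and 5.39 on mandibular 1, 2 and 3, against 2.81, 3.90 and 5.73 on tibial 1, 2 and 3, and so was highest on the same 3 arrays as ALX1 and lowest on tibial 1, where TFAP2A was lowest. The part of epithelial cells in the level of TFAP2A was not tested. Cell cycle genes, of which 14 were measured, had list means of 7.58 to 8.56 in mandibular and 6.01 to 8.15 in tibial cultures. All 14 were higher in mandibular cultures, with 0 past the test. Their median difference was 1.04, or 1.82 without mandibular 2 and tibial 3. The list means were lowest on tibial 1 and tibial 2, the arrays with the lowest TFAP2A. The mean was 7.68 on mandibular 2, where ALX1 was low, and 7.58 on mandibular 1, where ALX1 was high. The part of growth in the levels of the 8 genes was not tested.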

How the data were processed

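RNA of 6 cultures was labelled with the WT Terminal Labeling Kit and hybridised to an Affymetrix porcine array, per the labels' protocols. The authors deposited log2 levels made by RMA, and name Transcriptome Analysis Console 3.0 and Affymetrix Expression Console, per the submitters' processing notes. Settings and genome build: not given in the sources used here. No coordinates or sequences are printed. RMA removes a shift common to a whole array. Precision is limited by having 3 arrays a site.

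Of 27558 probe sets, 13157 had 1 symbol in GEO's platform annotation, 523 several and 13878 none. The probe set with the highest mean stood for a gene. Differences were fitted with limma 3.58.1 in R 4.3.3 over all probe sets without a block, adjusted by Benjamini-Hochberg, and the fit was tested on simulated data. The 8 genes, the 12 lists of related genes and markers, and the alternatives were chosen with earlier results of these data known. Named were the 8 genes, the measured paralogues, the 4 genes with the widest range in a list, and the 3 genes most like each member; other genes named were chosen after their values were seen. Results of the skeletal muscle, endothelial and Schwann and neural marker lists, with 3, 5 and 3 genes measured, were median differences of 0.08, -0.25 and -0.02. Alternatives were median centring, 2 filters on low levels, the replicate number as a block, unmoderated or robust statistics, array weights, and arrays left out.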

Additional observations from a re-analysis of the deposited data

How the results depend on the processing

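The number of the 8 genes past the test was 0 in all 6 fits that left out 1 array, and under median centring, both filters, array weights, unmoderated statistics and robust statistics with a trend. It was 4 without the arrays labelled mandibular 2 and tibial 3, where ALX1 differed by 4.04, LHX8 by 3.82, MSX1 by 1.67, TFAP2A by 2.25 and BARX1 by -0.65. In that fit 6 genes of the 5 related lists passed, beside 0.708% of all probe sets, and NOG differed by 1.92. The levels of the sites did not overlap for 8 genes there, beside 37.3% of all probe sets. With 1 array left out they did not overlap for 0 to 4 genes, beside 12.7% to 21.7% of all probe sets (4 genes and 21.7% without tibial 3). Leaving out each array in turn, BARX1 ranged from -0.37 to 0.46 and OSR2 from -0.08 to 1.30, and the other 6 kept their direction. The cause of these changes was not tested. Probe sets past the test numbered 195 without both arrays, 2 without tibial 3, 1 without tibial 1 and 0 in the fit of all 6. OSR2 fell under the filter at the median level and was not tested there. The choice among probe sets of a gene changed nothing, since each of the 8 had 1. With the replicate number as a block, 0 of the 8 genes and 0 probe sets passed. At an unadjusted limma p under 0.05 the block fit gave 1 of the 8 genes and 1511 of 27558 probe sets. The fit without a block gave 0 and 836. Without tibial 3 and without a block, these counts were 4 of the 8 and 2070 probe sets. Without mandibular 2 they were 1 and 879. Deviations of same-numbered arrays from their site means correlated at -0.03, 0.21 and 0.47. The value of 0.47, for mandibular 3 and tibial 3, was the highest of all pairs across the sites. Mandibular 1 correlated best with tibial 3, and mandibular 2 with tibial 1. Mandibular 2 and tibial 3, which stood apart in their sites, correlated at -0.49 and weigh on all these values. The check therefore cannot decide whether a number marks a pig. No label says that it does, so the main fit was unpaired. The levels that cannot be separated from background limit ALX1, LHX8 and OSR2 at their low end.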

Other observations

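Genes next to the 8 factors on the chromosome mostly lacked their spread. For each factor the nearest 2 protein-coding genes on either side were taken from the gene order of RefSeq's Sscrofa11.1 table, a choice made after the data were seen. Of 32 such neighbours 20 were measured, with a median range of 0.56 over the 6 arrays, and 4 had a range of at least 1. They were HDAC9 beside TWIST1 at 1.56, SLC25A21 beside PAX9 at 1.53, CRYZ near LHX8 at 1.14 and NTS near ALX1 at 1.03. SLC25A21, a mitochondrial carrier gene, measured 7.13, 6.07 and 6.81 on mandibular 1, 2 and 3, against 6.32, 5.61 and 6.55 on tibial 1, 2 and 3. Its highest levels were on the 3 arrays where PAX9 was high. NKX2-1 and NKX2-8, on the other side of PAX9, had ranges of 0.85 and 0.87 and were highest on tibial 1, where PAX9 was lowest. HDAC9, a histone deacetylase gene, measured 6.27, 5.36 and 6.38 on mandibular 1, 2 and 3, against 5.86, 4.82 and 5.69 on tibial 1, 2 and 3, and unlike TWIST1 it was not highest on tibial 1 and tibial 2.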
